A study of Rattus norvegicus with 62 samples.

Results

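The frontal cortex of rats given levetiracetam was compared with the frontal cortex of control rats on 13 of the 62 oligonucleotide arrays of the study. The arrays were chosen by their labels alone: the 7 numbered 1 to 7 for levetiracetam frontal cortex, and the 6 numbered 1, 2, 3, 5, 6 and 7 for control frontal cortex. All animals were male Wistar rats; the labels give no age and name no seizure model. The drug label reads 150 mg/kg x 2, given by gastric tube 2 times a day for 90 days, and controls received a control solution by the same route and schedule. For comparison, 7 frontal cortex arrays of rats given phenytoin (labelled 75 mg/kg) on that schedule and the hippocampus and brainstem arrays of levetiracetam and control rats, 7 of each, were used. The hour at which tissue was taken is not given in the sources used here, and 1 rat may have given tissue to all 3 regions, which the labels do not state.

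Levetiracetam is an antiepileptic drug that binds SV2A, a glycoprotein of synaptic vesicles, and thereby affects transmitter release. Its binding protein belongs to a small family with SV2B and SV2C, which are found on vesicles in different neurons. Frontal cortex is rich in excitatory pyramidal neurons, with inhibitory interneurons and glia between them, and like other tissues it runs a circadian clock. In that clock the activators CLOCK and BMAL1 bind E-box sequences and switch on their own repressors, the Period and Cryptochrome genes. They also switch on Nr1d1 and Nr1d2, which repress Bmal1, and output factors such as Dbp and Tef.

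No gene differed between levetiracetam and control frontal cortex at the threshold used, an adjusted p of 0.05 (limma, Benjamini-Hochberg). Of 18625 probe sets tested, 0 were called, a percentage of 0, and 756 (4.06%) had an unadjusted p under 0.05. An even spread of p-values would put 931.25 there. Of the 756, 380 (2.04% of those tested) stood higher with the drug and 376 (2.02%) lower. Over all probe sets 50.1% lay above zero and 49.9% below. The smallest adjusted p was 0.494, shared by 8 named genes that include Dbp, Thoc2 and Rgs17. Differences below are log2 differences, levetiracetam minus control, of normalized log2 intensities on the log2(value + 16) scale, which understates the change of dim genes.

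**Figure D1:**
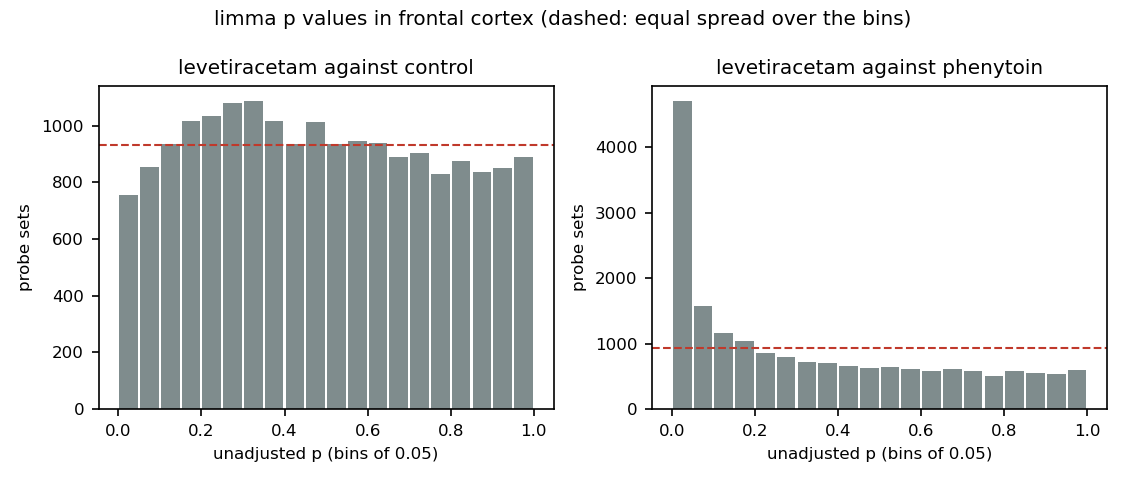
Number of probe sets (vertical axis) by unadjusted limma p-value (horizontal axis, bins of 0.05) for levetiracetam against control and against phenytoin in frontal cortex, with a dashed line at 931.25, an equal share for each bin. The lowest bin holds 756 probe sets against control, below the line, and 4702 against phenytoin.

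The size of change that the fitted intervals leave room for was small for most genes. The median log2 difference was 0.00039, the largest upward 0.98 and the largest downward -0.73, so that 0 probe sets passed a 2-fold difference on this scale. Without the added 16 (a floor of 1), the myelin gap junction gene Gjb1 and the growth factor gene Fgf1 read 1.26 and 1.11 (limma adjusted p = 0.952). These are the highest values over the settings, and the lowest were 0.33 for Gjb1 and 0.28 for Fgf1. The count of probe sets past 2-fold with that floor is not given here. The median standard error was 0.13. The 95% interval of the difference lay wholly within 0.5 of zero for 14454 probe sets (77.6%) and within 1, a 2-fold change, for 18508 (99.4%). It lay within 0.25, a 1.19-fold change, for 2244 (12%); for the others the interval reaches past that size in at least 1 direction. The number of arrays limits this precision, and p-values measure the spread between these rats.

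Cortex markers were set against the control arrays of the other regions. Of 25 frontal cortex markers on the array, 15 stood above every control brainstem array in all cortex arrays of both groups and 5 above every control hippocampus array, while 2 lay below every control hippocampus array. Neurod6, a factor of excitatory forebrain neurons, was one of them, at 9.54 to 10.33 with levetiracetam and 8.91 to 10.03 in controls against 10.56 to 11.08 in hippocampus. Mef2c, a neuronal transcription factor, read 10.72 to 11.81 with levetiracetam and 11.40 to 11.92 in controls, against at most 7.72 in brainstem. The cholinergic enzyme gene Chat and the hindbrain gene Hoxb3 were near the array floor, at most 5.26 and 5.72 with levetiracetam. Prox1, which marks dentate granule cells, was at most 6.48 with the drug and 8.89 to 9.43 in hippocampus. Tbr1, a deep-layer cortical factor, read 5.97 to 7.51 with levetiracetam and 6.16 to 7.36 in controls.

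One array stood apart. Levetiracetam rat 3 had a median correlation of 0.914 with the other rats of its group, against 0.958 to 0.970 for the others, and an estimated array weight of 0.174 where the average is near 1. It had the lowest deposited median of the 20 frontal cortex arrays, 34.1 intensity units, and the highest 3' to 5' beta-actin log2 ratio of its group, 1.60. Its microglia marker level, 7.65, was the highest and its frontal cortex marker level, 8.60, the lowest of the 13 arrays. Without it, 0 probe sets were called and the smallest adjusted p was 0.226. Between the groups, differences in RNA and labelling measures lay within the spread of the rats. The 3' to 5' log2 ratio of Gapdh was 0.242 ± 0.068 (SD, n = 7) with the drug and 0.205 ± 0.041 (n = 6) in controls (two-sided exact permutation test, p = 0.265, adjusted 0.668 over 4 measures). For beta-actin, spike-in controls and the array median the exact p-values were 0.58, 0.668 and 0.366, each 0.668 when adjusted.

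The SV2 genes, which hold the drug's binding protein, showed no difference beyond the spread between rats. Sv2a read 8.78, 9.17 and 9.65 (lowest, median, highest) with levetiracetam and 8.74, 9.11 and 9.34 in controls, and the groups overlapped. Its difference was 0.07 (SE 0.13, 7 against 6 rats; limma adjusted p = 0.961), and it was -0.02 without levetiracetam rat 1. Sv2b, the brighter of the pair on this platform, read 10.90, 11.71 and 12.12 against 10.94, 11.80 and 12.04, a difference of -0.01 (SE 0.20; limma adjusted p = 0.999). The sign for this Sv2b probe set turned with the setting, from -0.05 to 0.04, and between -0.16 and 0.13 when single arrays were left out. A dimmer Sv2b probe set that was tested gave -0.09, and another, too dim to test, -0.20. Sv2c, the family member of more restricted expression, was too dim to test: 4.08 to 5.12 with the drug and 4.19 to 5.25 in controls, under the filter level of 5.47.

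Among the lists of genes examined, the circadian clock held the largest share of small p-values. Of its 23 genes, 21 were tested and 9 (42.9%) had an unadjusted p under 0.05, against 3.87% of all 10376 genes read by their brightest probe set (2.03% lower and 1.84% higher). Of the 9, 7 stood lower with levetiracetam (Dbp, Usp2, Nr1d2, Nr1d1, Tef, Per3 and Bhlhe41) and 2 higher (Cry1 and Bmal1). None passed the adjusted threshold in frontal cortex, where percent called was 0. These genes depend on each other and on the hour, so they are not independent observations. The share was also part of earlier results of these data, and whether the hour of tissue collection differed between the groups was not tested.

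The promoter windows of 3 of the clock genes are printed because the E-box is the element that the clock activators read, with the E-box letters CACGTG in capitals where the window holds them. Each window runs from 250 bases before to 50 after the RefSeq gene start (GRCr8, 5′ to 3′ on the gene's strand).
Dbp, chr1:105312006-105312305, plus strand: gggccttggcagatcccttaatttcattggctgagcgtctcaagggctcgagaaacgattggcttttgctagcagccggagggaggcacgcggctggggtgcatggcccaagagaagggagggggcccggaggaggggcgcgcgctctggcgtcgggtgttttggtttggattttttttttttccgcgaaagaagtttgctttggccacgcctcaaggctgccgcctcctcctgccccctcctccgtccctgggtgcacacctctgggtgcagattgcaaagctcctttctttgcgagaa
Tef, chr7:115206577-115206876, plus strand: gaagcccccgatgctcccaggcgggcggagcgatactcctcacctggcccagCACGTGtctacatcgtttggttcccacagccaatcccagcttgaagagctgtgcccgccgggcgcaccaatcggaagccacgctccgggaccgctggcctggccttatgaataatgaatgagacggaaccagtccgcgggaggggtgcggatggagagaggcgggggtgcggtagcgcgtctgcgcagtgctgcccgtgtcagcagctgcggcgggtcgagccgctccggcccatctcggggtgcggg
Bhlhe41, chr4:180569306-180569605, minus strand: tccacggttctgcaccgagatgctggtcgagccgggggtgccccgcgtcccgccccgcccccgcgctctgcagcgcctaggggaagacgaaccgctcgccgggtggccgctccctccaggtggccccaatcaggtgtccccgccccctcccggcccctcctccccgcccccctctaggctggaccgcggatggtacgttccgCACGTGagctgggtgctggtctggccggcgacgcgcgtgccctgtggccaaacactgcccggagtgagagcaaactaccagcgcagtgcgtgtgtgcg
The E-box is its own reverse complement, so both strands read alike. It was in 1826 of 27457 RefSeq windows (6.65%) and in 3 of the 18 tested clock genes with a window: Tef at -198, Bhlhe41 at -48 and Bhlhe40 at -220 from the start. The full cAMP response element TGACGTCA was in 0 of the 18 and in 1.91% of all windows. A match describes the letters only, and E-boxes outside these windows were not examined.

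Dbp, a PAR bZIP transcription factor that carries clock time to output genes, had the smallest p of all 18625 probe sets. It read 8.09, 7.75, 8.39, 8.29, 8.36, 8.33 and 8.73 in levetiracetam rats 1 to 7, and 8.91, 8.83, 8.85, 8.81, 8.98 and 8.88 in the 6 control rats. All 7 drug rats lay below all 6 controls. The controls spanned little (SD 0.062) and the drug rats much more (SD 0.30). The difference was -0.60 (SE 0.12, 95% interval -0.86 to -0.35), a level 1.52-fold lower, with an unadjusted p of 6.77e-05 and a limma adjusted p of 0.494. Over all settings and left-out arrays it ranged from -0.68 to -0.51, with adjusted p from 0.145 to 1, and it was -0.62 without rat 3.

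Usp2, a deubiquitinase whose level follows the clock, read 7.86, 8.28 and 8.43 (lowest, median, highest) with levetiracetam and 8.44, 8.64 and 8.88 in controls. Here too the groups did not overlap, although the highest drug rat and the lowest control nearly met. The difference was -0.44 (SE 0.11; limma adjusted p = 0.714), and -0.48 without rat 3. A second, dimmer Usp2 probe set gave -0.12.

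The nuclear receptors Nr1d1 and Nr1d2 (REV-ERB alpha and beta), which repress Bmal1, stood lower in most drug rats. Nr1d2 read 8.37, 9.04 and 9.25 with levetiracetam and 9.23, 9.40 and 9.61 in controls, with 5 of 7 drug rats below every control. Its difference was -0.42 (SE 0.12; limma adjusted p = 0.955), all 3 of its probe sets were lower, and it was -0.32 without rat 3, the lowest of its group. Nr1d1 read 6.63, 7.29 and 7.69 against 7.40, 7.78 and 8.13, a difference of -0.48 (SE 0.14; limma adjusted p = 0.955) that was -0.38 without rat 3. Drug and control rats overlapped for each receptor.

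Tef, the PAR bZIP relative of Dbp, read 8.53, 8.67 and 8.92 with the drug and 8.81, 8.84 and 8.98 in controls, with 6 of 7 drug rats below every control (difference -0.18, SE 0.07; unadjusted p = 0.0218). Per3 (difference -0.43, SE 0.19) and the repressor Bhlhe41 (-0.22, SE 0.10) also stood lower, with overlapping groups. A second Per3 probe set, too dim to test, differed by 0.31. Bmal1, the activator that the REV-ERB receptors repress, read 7.36, 7.77 and 7.92 with levetiracetam and 7.33, 7.47 and 7.62 in controls. Its difference was 0.24 (SE 0.10; unadjusted p = 0.0225), with 5 of 7 drug rats above every control. The repressor Cry1 read 6.97, 7.11 and 7.27 against 6.56, 6.82 and 7.07 (0.28, SE 0.11; unadjusted p = 0.0162). Adjusted p was 0.955 for each of these 5 in limma.

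Of the other 12 clock genes tested, none had an unadjusted p under 0.05. Clock, the partner of Bmal1, differed by 0.02 (SE 0.13), Cry2 by -0.11 (SE 0.11) and Hlf, the third PAR bZIP gene, by -0.07 (SE 0.12). Per1 and Per2, which respond both to the clock and to neuronal activity, varied widely between rats. Per1 read 5.19 to 7.03 with the drug and 4.86 to 7.34 in controls (difference -0.32, SE 0.42), and Per2 7.13 to 8.56 against 6.87 to 8.33 (-0.08, SE 0.29). In all, 15 of 21 clock genes lay below zero with a list median of -0.09, against 48.3% of all genes and a median of 0.01. Without rat 3 the list median was -0.04, 11 of 21 lay below zero and 8 had an unadjusted p under 0.05.

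**Figure D2:**
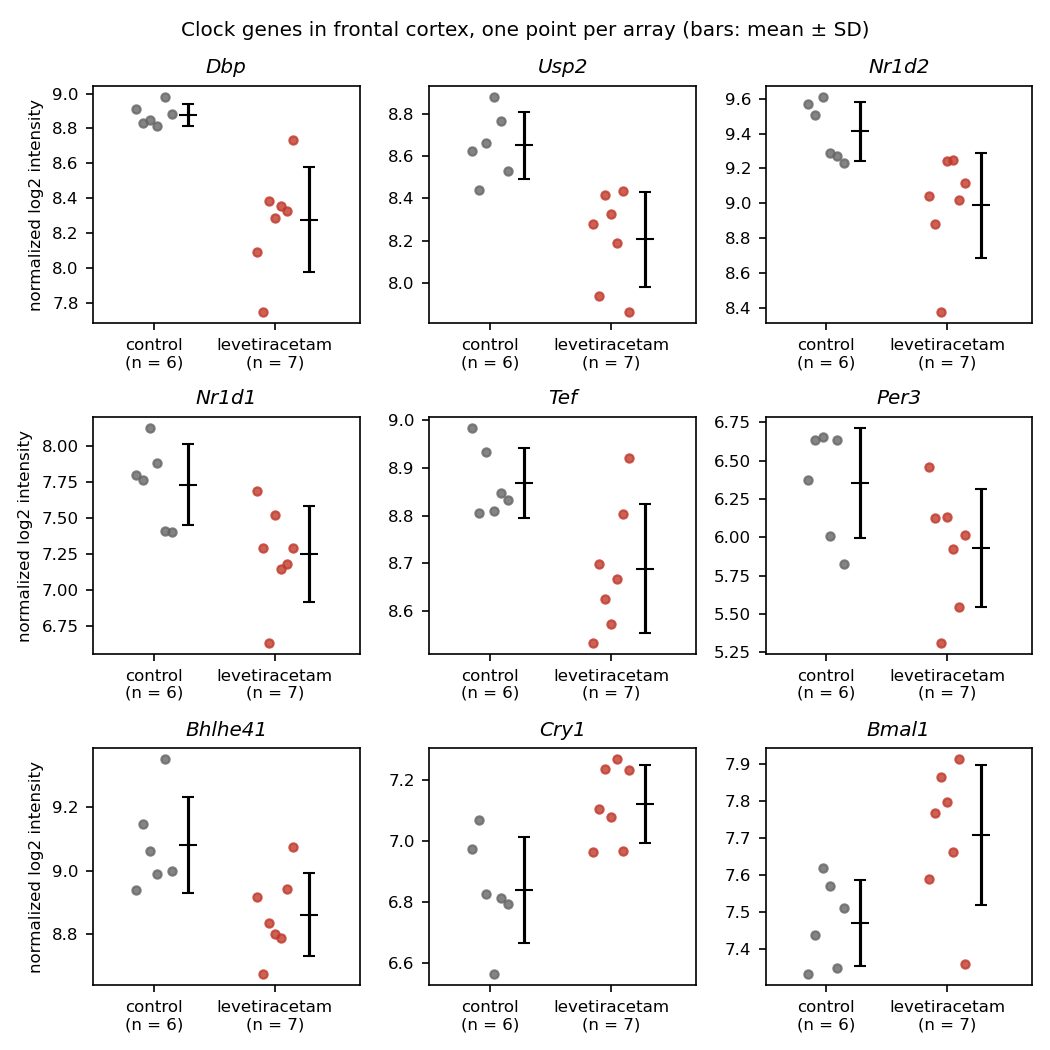
Normalized log2 intensity (vertical axis) of the 9 clock genes with an unadjusted p under 0.05, one point for each of 6 control and 7 levetiracetam frontal cortex arrays, with the group mean ± SD. The groups do not overlap for Dbp and Usp2; they overlap for the other 7 genes, and Cry1 and Bmal1 stand higher with levetiracetam.

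The same genes were read in the other regions of rats on the same treatments. Of the 9, all kept their sign in brainstem and 8 in hippocampus, Tef being the exception at 0.18. The share of all genes that kept their sign is not given here. In hippocampus Nr1d2 (-0.07, SE 0.10) and Bmal1 (0.06) lay near zero. The median of the whole clock list was -0.01 in hippocampus, as for all genes. In brainstem it was -0.14, against -0.02 for all genes. Dbp differed by -0.63 (SE 0.12) in brainstem, where it passed (limma adjusted p = 0.00115), and by -0.43 (SE 0.12) in hippocampus, where it did not (adjusted p = 0.347) and 0.0107% of probe sets passed. Its drug and control arrays did not overlap in any of the 3 regions: in hippocampus they read 7.55 to 7.89 against 7.90 to 8.31, and in brainstem 7.39 to 8.03 against 8.23 to 8.63. In cortex 0.0913% of all probe sets did not overlap, and the share in hippocampus and brainstem is not given here. Other genes, such as Nr1d2, Bex3 and Tma7, were also apart in brainstem. The regions are not separate evidence if they were taken from the same rats. Dbp was the 1 clock gene called in brainstem, where 794 of the 18625 probe sets (4.26%) passed in the fit of all 9 groups. Its effect in cortex minus that in brainstem was 0.03 (SE 0.17, adjusted p = 0.973 in limma), and minus that in hippocampus -0.17 (SE 0.17, adjusted p = 0.891).

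**Figure D3:**
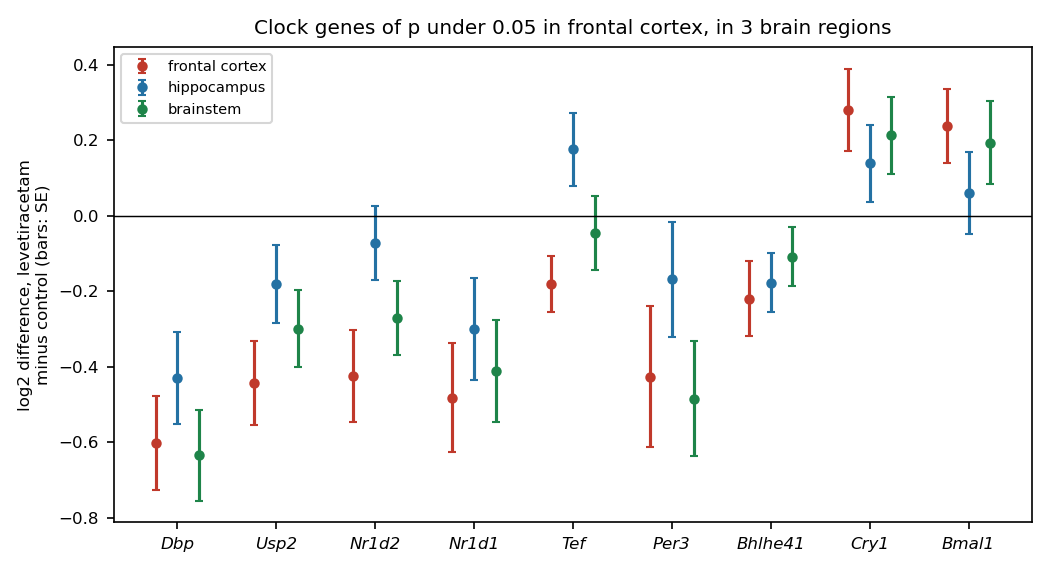
Log2 difference, levetiracetam minus control, with its standard error (vertical axis) for 9 clock genes in frontal cortex, hippocampus and brainstem. Dbp lies between -0.63 and -0.43 in the 3 regions, and Tef is the 1 gene above zero in hippocampus and below it in frontal cortex.

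In phenytoin rats Dbp differed from the same control arrays by -0.53 in frontal cortex (limma adjusted p = 0.00941), where 6.38% of probe sets passed. The 2 comparisons share their controls, so they are given side by side only. Levetiracetam minus phenytoin, a difference that does not use the control means, was -0.07 for Dbp (limma adjusted p = 0.769). The control arrays still enter the estimate of spread behind that p-value. Of the 21 clock genes 4 passed in that comparison, where 10.8% of probe sets did. Nr1d2 stood at -0.49 (limma adjusted p = 0.00806) and Bmal1 at 0.36 (adjusted p = 0.0146 in limma). Npas2, an alternative partner of Bmal1, stood at -0.66 (limma adjusted p = 0.000536) and the kinase gene Csnk1e at -0.71 (limma adjusted p = 0.000869), while their differences of levetiracetam from control were -0.15 (SE 0.12) and -0.03 (SE 0.14).

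The 12 genes of smallest p on the higher side lay between 0.39 and 0.57 and had limma adjusted p of 0.494 to 0.955. In 3 of them every levetiracetam rat lay above every control. Rgs17, a regulator that shortens G protein signalling, read 7.56, 7.66 and 7.87 with the drug and 6.89, 7.32 and 7.43 in controls (difference 0.40, SE 0.09). Its 5 probe sets were all higher with levetiracetam, by 0.15 to 0.40. The groups overlapped in all but the Rgs17 probe set read here, and the brightest gave 0.18. Tbc1d12, which carries a Rab GTPase-activating domain, read 6.31, 6.41 and 6.59 against 5.82, 6.05 and 6.19 (0.39, SE 0.09). Gpatch4, a nucleolar RNA-binding protein gene, read 6.32, 6.51 and 6.78 against 5.86, 6.13 and 6.19 (0.46, SE 0.10). Its 4 probe sets were all higher, by 0.17 to 0.46. The brightest Gpatch4 probe set gave 0.17, and the groups overlapped in all but the one read here.

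The other 9 overlapped between groups. Thoc2, a subunit of the THO complex for mRNA export, read 6.52, 6.72 and 7.12 against 6.14, 6.23 and 6.58, a difference of 0.52 (SE 0.11; limma adjusted p = 0.494), but another of its probe sets gave -0.14. Sox2, a transcription factor of neural progenitors and glia, read 7.37, 7.57 and 7.96 against 6.58, 7.07 and 7.43 (0.57, SE 0.14), with 6 of 7 drug rats above every control. Tbl1x, of the NCoR corepressor complex, was higher by 0.53 (SE 0.12) and Mitf, a bHLH-zip transcription factor, by 0.56 (SE 0.13). Pals2, a membrane scaffold gene, was higher by 0.43 (SE 0.10) and Lsm12, an Sm-like RNA-binding protein gene, by 0.49 (SE 0.11). The zinc finger gene Zfp91, the cochaperone Dnajb14 and the chromatin reader L3mbtl3 were higher by 0.41, 0.42 and 0.41. For Pals2, Zfp91, Sox2 and Dnajb14, 1 probe set of each gene had the opposite sign, in Sox2 and Dnajb14 a dim one that was not tested. The brightest probe set gave less for Tbl1x (0.09), Mitf (0.13), Lsm12 (0.16), Zfp91 (0.18), Thoc2 (0.20) and Sox2 (0.21). A second probe set of L3mbtl3 gave 0.13.

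The 12 of smallest p on the lower side include 4 of the clock genes, Dbp, Usp2, Nr1d2 and Nr1d1. In 2 more the groups did not overlap. Cd2bp2, whose protein belongs to a splicing particle, read 8.98, 9.18 and 9.31 with levetiracetam against 9.33, 9.41 and 9.50 (difference -0.25, SE 0.07), while its other probe set differed by 0.0049. Ccsap, a centriole and spindle protein gene, read 7.40, 7.67 and 7.71 against 7.72, 7.91 and 8.06 (-0.29, SE 0.08). All 3 of its probe sets were lower, with groups apart only in the one read here.

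Chst14, a dermatan sulfotransferase gene, had the largest downward difference at -0.73 (SE 0.20; limma adjusted p = 0.955). It is dim: the drug rats read 4.13, 5.41 and 5.80 and the controls 5.72, 5.82 and 5.95. Kcnj4, an inward rectifier potassium channel of forebrain neurons, read 7.01, 7.10 and 7.30 against 7.25, 7.40 and 7.54 (-0.27, SE 0.08). Its brighter probe set differed by -0.11. Lgi3, a secreted protein of the LGI family, was lower by -0.39 (SE 0.11) in its brightest probe set and higher by 0.16 in its dimmest. Ppat, the first enzyme of purine synthesis, stood at -0.39 (SE 0.11), Tmem109 at -0.35 (SE 0.09) and Ankrd63 at -0.56 (SE 0.16), or -0.43 without rat 3.

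**Figure D4:**
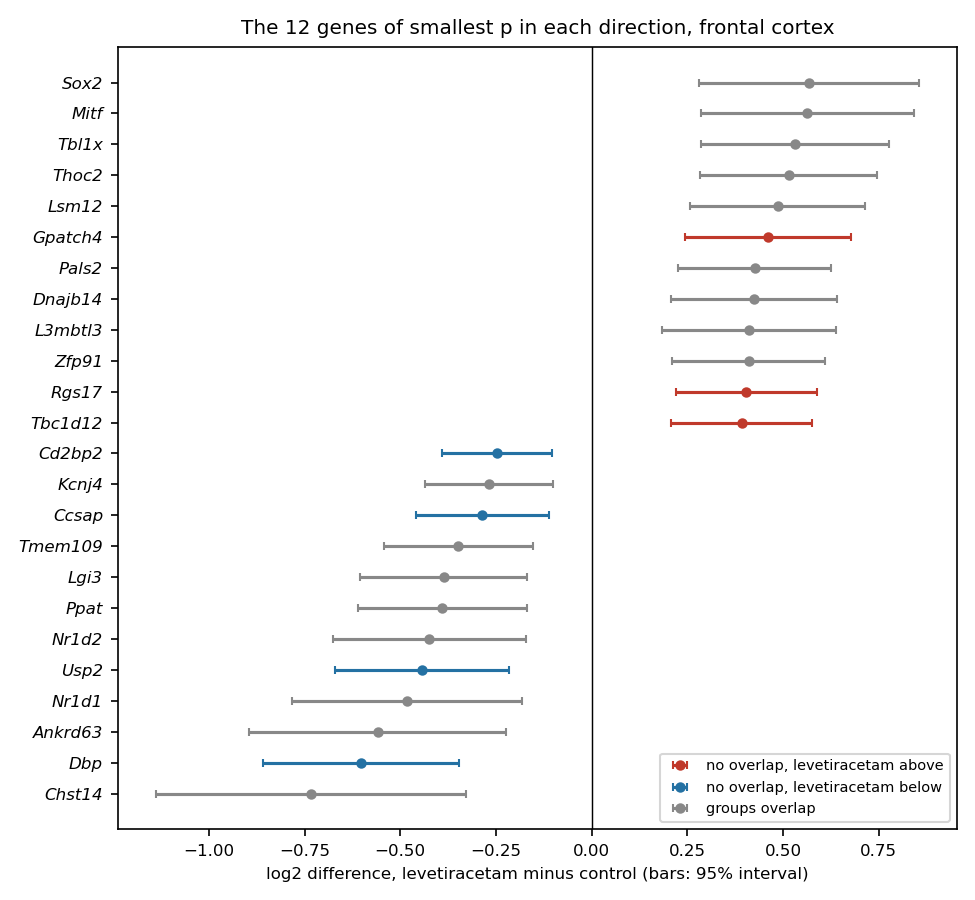
Log2 difference, levetiracetam minus control in frontal cortex, with its 95% interval (horizontal axis) for the 12 genes of smallest p in each direction. Colour marks, for the probe set plotted, the 3 genes in which all drug rats lie above all controls and the 4 in which they lie below. No gene passed the adjusted threshold.

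Across all probe sets the groups did not overlap in 17 (0.0913%), 6 with levetiracetam above (0.0322%) and 11 below (0.0591%). Of the 1716 ways to assign the arrays to groups of 7 and 6, 1 puts the drug group wholly above and 1 wholly below. Some probe sets among 18625 would therefore be apart without any drug effect, and a lack of overlap alone does not show one. Of these 17, 14 carry 1 gene symbol; besides the 7 named above they are Srpk3, Fxr1, Pot1, Chst8, Nono, Cox15 and Nalf1, which were chosen after their values were seen. Fxr1, an RNA-binding relative of the fragile X protein, read 7.22 to 7.53 with levetiracetam and 6.88 to 7.19 in controls. Nono, a nuclear paraspeckle protein, read 9.40 to 9.64 against 9.66 to 9.84.

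Ion channel and receptor lists lay mostly below zero, and rat 3 moved each of them. None of their genes was called. All 7 voltage-gated sodium channel genes tested lay below zero (median -0.14), from Scn8a, the Nav1.6 pore subunit, at -0.23 (SE 0.23) to the weakest at -0.04. Without rat 3 it was 4 of 7 and a median of -0.04. Of 16 calcium channel genes 14 lay below zero (median -0.14), and 11 without rat 3 (median -0.06). Cacng2 (stargazin), which brings AMPA receptors to the membrane, went the other way at 0.29 (SE 0.08, unadjusted p = 0.00175), with drug rats at 8.57 to 8.93 and controls at 8.30 to 8.68. Cacna1c, the Cav1.2 pore, stood at -0.34 (SE 0.14, unadjusted p = 0.0277).

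Of 30 potassium and HCN channel genes 24 lay below zero (median -0.11), and 19 without rat 3 (median -0.05). The channel-associated genes Kcnip1 and Kcnip2 lay on opposite sides, at 0.38 (SE 0.12) and -0.24 (SE 0.09). Of 34 glutamate receptor and transport genes 26 lay below zero (median -0.13), and 19 without rat 3 (median -0.02). Grm2, a presynaptic metabotropic receptor, had the smallest p of that list, with drug rats at 5.86 to 6.48 and controls at 6.13 to 6.95 (-0.43, SE 0.15, unadjusted p = 0.00751). GABA genes were split evenly, 9 of 18 on either side. The mean level of the sodium channel list over its genes was 8.08 in rat 3, the lowest of the 13 arrays, and the other drug rats reached 9.19, against 8.54 to 9.26 in controls.

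Among 40 synaptic vesicle and release genes, the machinery in which SV2A works, 24 lay below zero (median -0.04), and 19 without rat 3 (median 0.03). Cplx2, a complexin that clamps the fusion complex, stood at 0.24 (SE 0.09, unadjusted p = 0.0171), and Syn2, a synapsin that holds vesicles in reserve, at -0.36 (SE 0.17, unadjusted p = 0.0444). Of 34 activity-induced genes 0 had an unadjusted p under 0.05; Bdnf, the neurotrophin, stood at 0.24 (SE 0.12) and Jun at -0.20 (SE 0.10). In the neurotrophic list Fgf1, a fibroblast growth factor gene, had the largest difference, 0.59 (SE 0.20, unadjusted p = 0.00749).

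The oxidative phosphorylation, ribosomal and proteasome lists lay mostly above zero, with rat 3 at the top, while glycolysis lay mostly below. Of 67 oxidative phosphorylation genes 59 lay above zero (median 0.08), and 45 without rat 3 (median 0.03). Of 40 cytosolic ribosomal protein genes 35 lay above zero (median 0.07), and 24 without rat 3 (median 0.02). Of 35 proteasome genes 29 lay above zero (median 0.07), and 15 without rat 3 (median -0.01). Rat 3 had the highest mean level of the 13 arrays in all 3 lists, for example 11.25 for oxidative phosphorylation, where the controls read 10.66 to 10.97. The 3 lists hold 0, 0 and 1 genes with an unadjusted p under 0.05, the 1 being Psmd2, a proteasome base subunit, at -0.15. Of 24 glycolysis genes 18 lay below zero (median -0.05), and 15 without rat 3 (median -0.01), which had the lowest level of that list, 9.81.

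Of the 35 genes tested for heat shock and for the unfolded protein response, 25 lay above zero (median 0.06), with 4 at an unadjusted p under 0.05 on the higher side and 1, the stress sensor Atf6 at -0.21 (SE 0.10), on the lower, against 1.84% and 2.03% of all genes. The 4 were the endoplasmic reticulum genes Dnajc3 (0.29, SE 0.10), Creld2 (0.40, SE 0.16), Xbp1 (0.20, SE 0.08) and Sdf2l1 (0.41, SE 0.17). Without rat 3 these 4 differences were 0.22, 0.26, 0.17 and 0.27, and 21 of 35 lay above zero. Creld2 read 7.06 to 8.40 with levetiracetam and 6.88 to 7.46 in controls, so the groups overlapped. In the drug metabolism and efflux list, Abcg2, an efflux pump of the blood-brain barrier, read 5.74 to 7.09 with levetiracetam and 6.68 to 7.39 in controls (-0.51, SE 0.18, unadjusted p = 0.00878).

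The medians of the main cell type marker lists lay near zero. They were -0.0024 for 29 neuron markers, -0.02 for 22 astrocyte markers, 0.02 for 29 oligodendrocyte and myelin markers and 0.06 for 21 microglia markers. The mean marker level per array overlapped between groups in each: for microglia 6.75 to 7.65 with the drug and 6.78 to 7.31 in controls. Without rat 3 the microglia median was -0.02. In bulk tissue, fewer cells of a type and less RNA per cell cannot be told apart. Of 21 endothelial and pericyte markers, Myh11, the smooth muscle myosin gene, stood lowest at -0.49 (SE 0.16, unadjusted p = 0.00485). Of 13 hippocampus markers Wfs1, also a gene of some cortical neurons, stood lowest at -0.58 (SE 0.22), or -0.46 without rat 3.

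**Figure D5:**
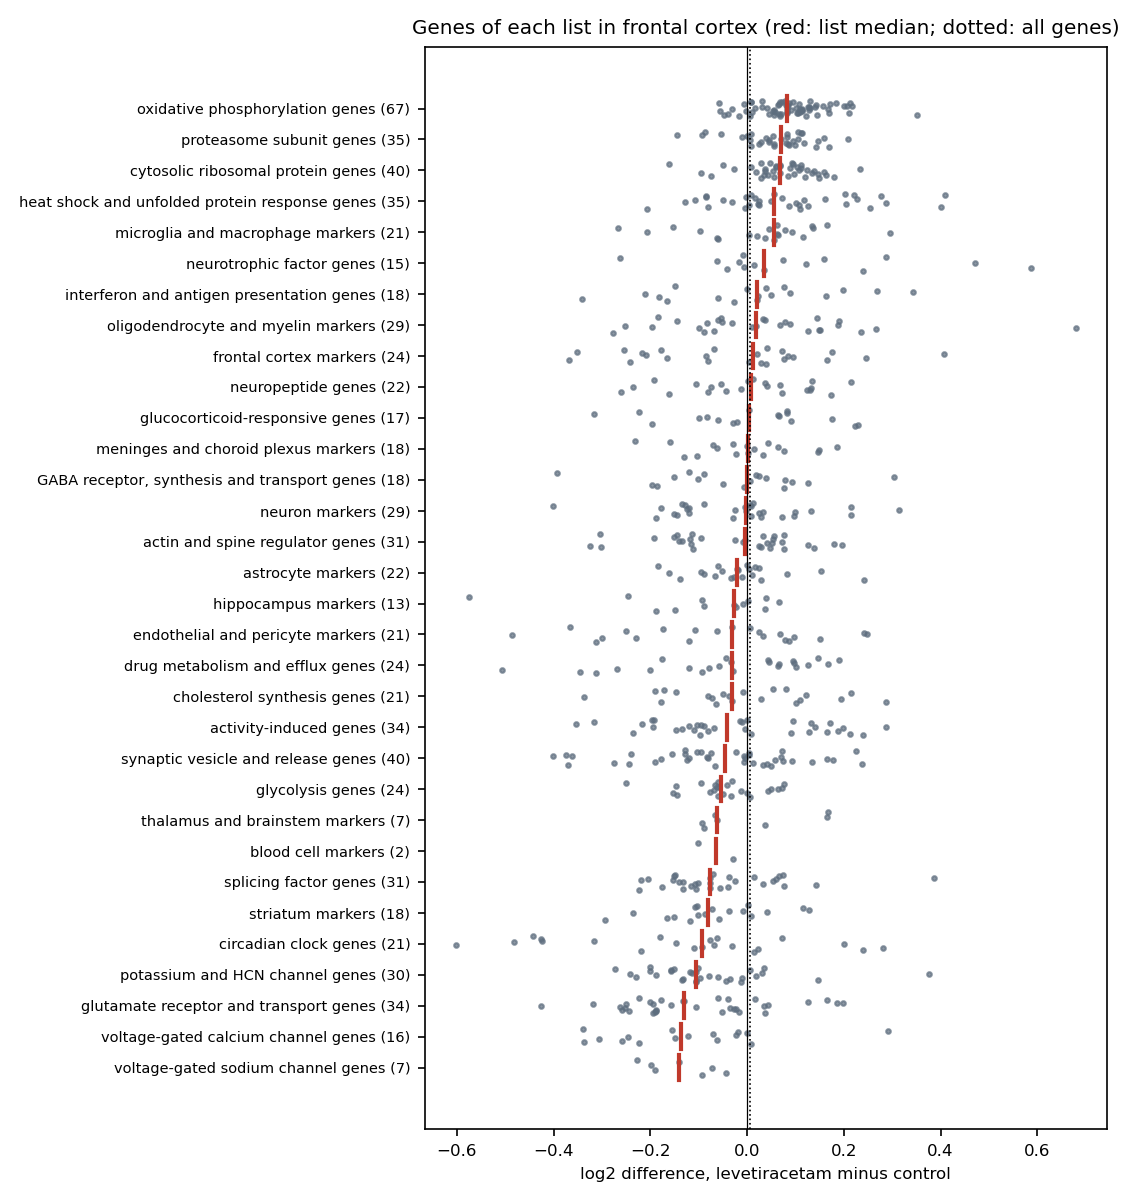
Log2 difference, levetiracetam minus control in frontal cortex (horizontal axis), of the tested genes of 32 lists, with the number of genes in brackets, the list median in red and the median of all genes as a dotted line. The sodium channel median lies lowest at -0.14 and the oxidative phosphorylation median highest at 0.08; without rat 3 they were -0.04 and 0.03.

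The effect of levetiracetam in frontal cortex was then tested against its effect in the other regions, in 1 fit of all 62 arrays. Against hippocampus 0 probe sets passed (percent called 0), 1048 had an unadjusted p under 0.05, and the smallest adjusted p was 0.835. Against brainstem 18 passed (0.0966%), 14 with the lower effect in cortex, and in all 18 the cortex and brainstem differences had opposite signs. All 18 were called in brainstem itself and 0 in cortex, where 4 had an unadjusted limma p under 0.05. The 18 were picked for a large difference of effects, which favours opposite signs. In cortex Tma7 (-0.0038, SE 0.08) and Mtch1 (0.0043, SE 0.07) lay near zero. The labels of brainstem rats 1 and 2 name both drugs; without them 13 passed. The count moved between 3 and 59 when single arrays were left out, with 3 left when control cortex rat 3 was dropped and 59 without control cortex rat 6.

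Bex3, a neurotrophin receptor-interacting gene, had the largest of these differences at -1.24 (SE 0.21; limma adjusted p = 0.00204). In frontal cortex it read 6.72, 6.87 and 7.44 with levetiracetam and 6.99, 7.20 and 7.96 in controls (-0.32, SE 0.15). In brainstem it read 8.31, 8.40 and 8.44 against 7.07, 7.40 and 7.84, so that the groups were apart there and overlapped in cortex. Tma7, a small translation-associated gene, differed by -0.67 (SE 0.11; limma adjusted p = 0.00204) between the regions, with -0.0038 in cortex and 0.66 in brainstem. Slbp, which binds histone mRNA, differed by -1.22 (SE 0.24, limma adjusted p = 0.0183). It is dim in cortex, at 4.99 to 6.01 with levetiracetam and 5.005 to 6.32 in controls, around the filter level of 5.47. In brainstem it read 7.67 to 8.21 against 6.41 to 7.45. A change of Slbp in cortex would be understated on this scale. Nrxn2, a presynaptic adhesion gene, differed by -0.67 (SE 0.14, limma adjusted p = 0.0256). In frontal cortex Nrxn2 read 7.87, 8.35 and 8.75 with levetiracetam and 8.48, 8.70 and 8.84 in controls, with 6 of 7 drug rats below every control (-0.36, SE 0.11). Several of these calls lie close to the threshold. Without control cortex rat 3, Slbp stood at -1.19, Nrxn2 at -0.65, Sap30l at 0.62, Arid1b at -0.87 and Ccser2 at 0.80, sizes close to before, and their limma adjusted p was 0.0571 to 0.0744. Without control cortex rat 7, Slbp, Arid1b and Ccser2 were not called (-1.07, -0.83 and 0.87; limma adjusted p = 0.0752). Without levetiracetam brainstem rats 1 and 2, Ccser2 stood at 0.81 and was not called (limma adjusted p = 0.0702). Leaving out single brainstem rats also ended the calls for Ccser2 (levetiracetam rats 1 and 7, control rats 2 and 6) and Nrxn2 (rat 7 of either group), at limma adjusted p of 0.0507 to 0.059.

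Levetiracetam and phenytoin frontal cortex differed in 2007 probe sets (10.8%), 697 higher and 1310 lower with levetiracetam. Some of the genes with the largest differences, such as Acyp2 and Caskin1, stood near control under levetiracetam, while Cyp27a1 lay further from it. Ankrd13c differed by -2.52 from phenytoin (limma adjusted p = 9.33e-08) and by -0.32 (SE 0.21) from control. Acyp2, an acylphosphatase gene, differed by -2.53 from phenytoin (adjusted p = 5.5e-06 in limma) and by -0.04 (SE 0.31) from control. Caskin1, a synaptic scaffold gene, stood 0.97 above phenytoin (limma adjusted p = 0.000502) and 0.06 (SE 0.18) above control. Cyp27a1, the sterol 27-hydroxylase gene, stood 0.75 above phenytoin (limma adjusted p = 0.0039) and 0.49 (SE 0.17) above control, with drug rats at 6.66, 7.02 and 7.61 and controls at 6.02, 6.52 and 6.88.

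The mean 3' to 5' beta-actin log2 ratio was 1.26 (1.04 to 1.60) on the levetiracetam arrays and 1.57 (1.32 to 1.72) on the phenytoin arrays. With that ratio as a covariate Klf9 and Sbf2, 2 of the 6 genes that stood highest over phenytoin, stood at 0.62 and 0.58 in place of 0.75 and 0.91 and no longer passed (limma adjusted p = 0.135 and 0.108), while the count of all probe sets called was 1845. With the spike-in mean as a covariate the count was 1014, and whether labelling took part in the rest was not tested.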

How the data were processed

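The authors deposited 1 linear intensity per probe set and array; scaling is seen in the values, whose mean with 2% trimmed at each end is 150.04 to 150.06 on the frontal cortex arrays. The summarization software is not given in the sources used here. Values below 0 were set to 0, transformed as log2(value + 16) and quantile normalized over the 62 arrays. Control probe sets and the dimmest 40% by mean over the 20 frontal cortex arrays were left out, leaving 18625 of 31042. limma 3.58.1 in R 4.3.3 (lmFit, eBayes with trend) was fitted to the 3 cortex groups, and to all 9 groups for differences between regions. It was tested on simulated data. Tests were two-sided, and Benjamini-Hochberg adjusted p-values under 0.05 were called.

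Genes are named from probe sets with 1 gene symbol (20826 of 31042). The rule named the 15 largest that pass in each direction, filled to 12 by smallest p where fewer pass; the SV2 genes; up to 4 genes of smallest p per list, read by the brightest probe set; the 8 of smallest p for each region difference; and the 6 largest each way against phenytoin. Further clock genes were named after their values were seen. The members, the 32 lists and the rules were chosen with earlier results of these data known. Same-numbered drug and control arrays correlated at -0.422 to 0.383 in their deviations, with 3 of 6 pairs over 0.1. This does not settle whether the numbers pair the rats, and the main fits used no pairing. Alternatives changed the normalization, pseudocount, filter, arrays fitted, weights, covariates, threshold and probe sets per gene. Promoter sequences are RefSeq GRCr8, with a window for 18 of 21 tested clock genes.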

Additional observations from a re-analysis of the deposited data

Results flagged for a closer look

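In 72 groups of values examined, 6 had a rat far from the others of its group, a number to read against about 1 in 20 groups that chance marks in this way. In 3 of the 6 it was levetiracetam rat 3: its median correlation with its group was 0.914 against 0.958 to 0.970 for the others, Nr1d2 read 8.37 against 8.88 to 9.25, and Ankrd63 read 5.92 against 6.59 to 7.09. Control rat 7 had a median correlation of 0.956 with its group against 0.966 to 0.971 for the others, and its Sv2b level was 10.94 against 11.71 to 12.04. Control rat 6 had a Rgs17 level of 6.89 against 7.30 to 7.43.

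For 8 named genes the effect of levetiracetam in frontal cortex differed from that in brainstem by a test of the difference itself. The cortex effect was lower by -1.24 for Bex3, -0.67 for Tma7, -0.92 for Srsf7-ps4, -1.22 for Slbp, -0.92 for Arid1b and -0.67 for Nrxn2. It was higher by 0.64 for Sap30l and 0.88 for Ccser2. Slbp and Srsf7-ps4 are dim in cortex, Srsf7-ps4 at 5.07 to 5.84 with levetiracetam and 5.58 to 6.12 in controls, so that a change there would be understated. The calls for Slbp, Srsf7-ps4, Sap30l, Arid1b, Nrxn2 and Ccser2 had adjusted p of 0.0134 to 0.0257 (limma), and 5 of these 6, all but Srsf7-ps4, lost the call without control cortex rat 3 at differences of similar size.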

How the results depend on the processing

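The count of probe sets called between levetiracetam and control frontal cortex was 0 under each of the 15 alternative settings and with each of the 13 arrays left out, with the smallest adjusted p between 0.145 and 1 (limma). Of the clock genes, 7 to 10 had an unadjusted p under 0.05 throughout, 7 with the replicate block. The count over all 10376 genes moved more. It was 402 in the main fit, 242 with the 13 levetiracetam and control arrays alone (8 clock genes) and 714 without control rat 7 (9 clock genes). With the replicate block the counts were 0 against control (smallest adjusted p 0.88) and 1598 against phenytoin; the rat numbers are not shown to pair animals, and 0 of 6 arrays correlated best with their own number. The count against phenytoin was 3106 with 9 groups in 1 fit, 1014 with the spike-in covariate and 1068 with 1 probe set per gene, and 1628 to 2216 with single arrays left out.

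The difference from brainstem was called in 59 probe sets on the values as deposited, 48 with a pseudocount of 64, 9 without a filter, 35 with the dimmest 60% left out and 122 at a threshold of 0.1. It was 3 to 59 with single arrays left out, which was chosen after seeing the data. The cause was not tested. The difference from hippocampus was called in 0 probe sets under its 7 settings and with each of the 13 cortex arrays left out.

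Of 94 named genes, 4 changed sign somewhere. Sv2b was 0.0091 as deposited, 0.0399 with array weights and 0.0153 with the Gapdh covariate, and -0.16 to 0.13 with single arrays left out. In the same way Sv2a ranged from -0.0164 to 0.129, Slc17a6 from -0.00021 to 0.26 and Alas2 from -0.118 to 0.0843. Chst14, Myh11, Slbp and Srsf7-ps4 lie near the filter level in frontal cortex and Sv2c under it. Among the calls that differ from brainstem, Arid1b was -0.73 with array weights and no longer called (limma adjusted p = 0.0558).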
